A study of Mus musculus with 24 samples.

Results

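Fast synaptic excitation in the brain stem and spinal cord runs through ionotropic glutamate receptors (AMPA, kainate and NMDA receptors), which are cation channels built of several subunits. Fast inhibition runs through GABA-A and glycine receptors, which are chloride channels, while metabotropic glutamate receptors and GABA-B receptors act through G proteins. Motor neurons receive glutamate, GABA and glycine input, and the subunits that they express set how strongly and how long each transmitter acts. The genes of these subunits were described here across mouse embryonic stem cell cultures that make oculomotor or spinal motor neurons. They were chosen by symbol alone, as AMPA (Gria), kainate (Grik), delta (Grid), NMDA (Grin), metabotropic glutamate (Grm), GABA-A (Gabr), GABA-B (Gabbr) and glycine (Glr) receptor genes. The rule matched 51 of 22889 entries, namely 4 AMPA, 5 kainate, 2 delta, 7 NMDA, 8 metabotropic glutamate, 19 GABA-A, 2 GABA-B and 4 glycine receptor genes.

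The table held 24 samples, 6 in each of 4 sorted groups. Oculomotor cultures came from an Islet1-GFP stem cell line that also carried a Phox2a transgene driven by the nestin enhancer, and were patterned for 5 days with 250 nM of the hedgehog agonist SAG and 100 ng/ml FGF8. Spinal cultures came from an Hb9-GFP line and were patterned for 5 days with 500 nM SAG and 100 nM retinoic acid. Both were sorted by FACS into GFP-positive cells, which hold the motor neurons, and GFP-negative cells, which hold the rest of the culture. Between the 2 cultures the line, the reporter, the transgene and the factors changed together, and their parts cannot be told apart. Levels are given in RPKM (reads scaled to the length of the gene and to the mapped reads of the sample), so that genes of different length can be compared, and 752529 to 7675428 reads were mapped per sample. Samples numbered 1 to 4 were shallower (752529 to 4642207 reads) than samples numbered 5 and 6 (4822576 to 7675428 reads), and values are given within these sets where they matter. The authors used more than 1 sequencer model, with different read lengths. The labels used here do not say which samples each served, or whether the sets are separate batches.

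The sorted fractions were checked with lists of cell type markers. The summed RPKM of 11 general neuron markers was 1485 to 2181 in oculomotor GFP-positive and 21.2 to 71.0 in GFP-negative samples, and 91.8 to 2177 against 66.1 to 297 in the spinal samples. Between oculomotor fractions 9 of these 11 and 8 of 11 motor neuron markers were higher in GFP-positive cells, and 6 of 8 pluripotency, 4 of 8 cell cycle and 2 of 11 progenitor markers were lower. Over all genes 6.15% passed in this comparison. Summed pluripotency markers reached 0.315 to 268 RPKM in oculomotor GFP-positive and 733 to 9900 RPKM in oculomotor GFP-negative samples. Of the lists for other cells, 1 of 9 excitatory interneuron (Pou4f1) and 1 of 7 oligodendrocyte markers (Mbp) were higher, and 0 of 12 inhibitory interneuron and 0 of 7 astrocyte markers passed. Between spinal fractions 6 of 11 neuron and 5 of 11 motor neuron markers were higher, 1 of 7 oligodendrocyte markers (Pdgfra) was lower, and 0 markers of the other lists passed. Over all genes 1.23% passed there. Summed pluripotency markers reached 14.4 to 12446.5 RPKM (median 929) in spinal GFP-positive and 88.5 to 6054 RPKM (median 236) in spinal GFP-negative samples. These shifts in cell makeup move with every fraction difference below, and their part in it was not tested. In bulk samples, fewer cells of a type and less RNA per cell cannot be told apart.

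Spinal pair 4 did not separate by its reporter. The library labelled spinal GFP-negative 4 held 69.4 RPKM of Mnx1, the gene of HB9, and the library labelled spinal GFP-positive 4 held 43.1 RPKM. The latter also had 36.4 RPKM of the neuronal tubulin Tubb3 and 31.5 RPKM of the pluripotency gene Pou5f1, where the 5 further GFP-positive samples of that culture had 121 to 785 RPKM of Tubb3 and 0.116 to 2.22 RPKM of Pou5f1. In spinal GFP-negative sample 2, the 3 highest entries held 68.8% of all RPKM, which is a share of length-scaled values and not of reads. The cause was not tested. Differences of named members that involve spinal samples are given with all samples and without pair 4.

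Few subunits were expressed at appreciable levels. No member was at 0 in every sample, but 28 of 51 exceeded 1 RPKM in any sample, and the group mean exceeded 1 RPKM for 9 members in oculomotor GFP-positive, 2 in oculomotor GFP-negative, 12 in spinal GFP-positive and 7 in spinal GFP-negative cells. The 2 highest were Gabbr1, a subunit of the GABA-B receptor (11.8 RPKM on average over all samples), and Grik5, a kainate receptor subunit (10.2 RPKM). Gabbr2, the partner without which Gabbr1 does not reach the cell surface, stayed at or below 1.17 RPKM. Among the NMDA receptor genes, Grin1, which every NMDA receptor contains, stayed at or below 0.343 RPKM. Gabbr2 and Grin1 were singled out after their values were seen. Of the 19 GABA-A genes 12 never exceeded 0.778 RPKM, and 5 of 8 metabotropic glutamate receptor genes never exceeded 0.436 RPKM.

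**Figure D1:**
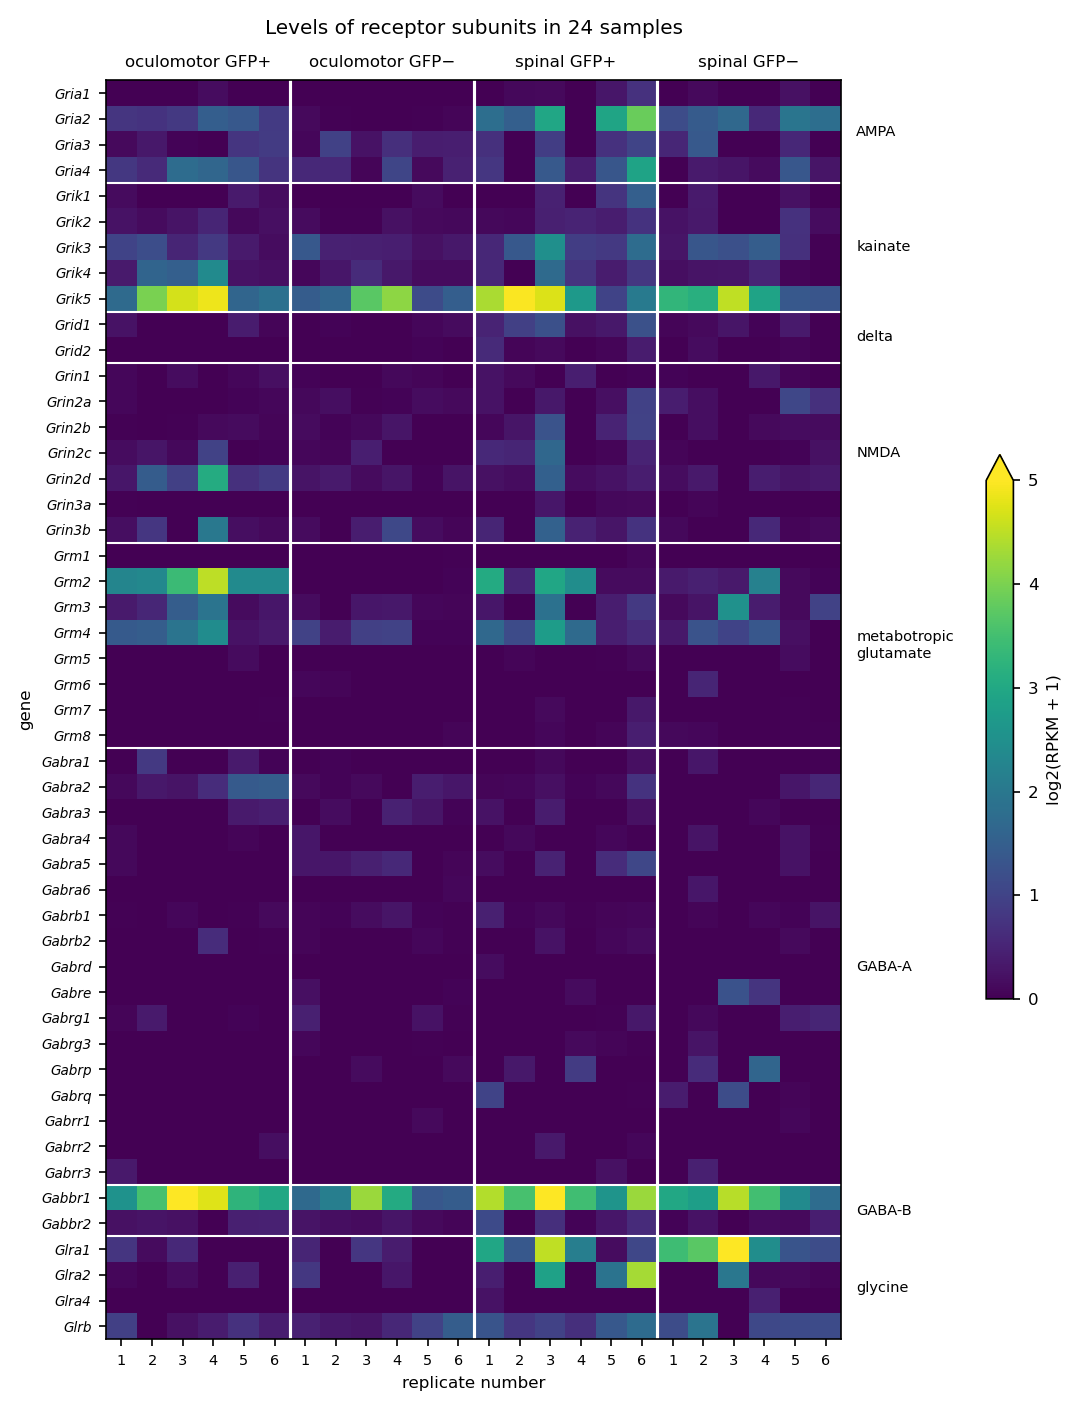
Level of each receptor subunit gene described (rows, by family) in each of the 24 samples (columns, by group and replicate number), as log2(RPKM + 1) on a color scale that ends at 5. Gabbr1 and Grik5 stand out in all 4 groups, Grm2 is dark in all 6 oculomotor GFP-negative samples, and Glra1 exceeds 0.723 RPKM in spinal samples only.

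The first comparison asked which receptor subunits distinguish the sorted oculomotor neurons from the other cells of their culture. Grm2, a presynaptic group II metabotropic glutamate receptor that lowers transmitter release, rose in GFP-positive cells and had no counterpart in GFP-negative cells. Its level was 3.83 to 21.5 RPKM (median 4.27) in the 6 GFP-positive samples. It was at 0 in 5 GFP-negative samples and at 0.0329 RPKM in the sixth, so that the groups did not overlap. On the log2(RPKM + 1) scale, which understates changes of low genes, the difference was 2.88 (SE 0.52, limma, adjusted p = 0.00112). In whole reads recovered from the RPKM steps, Grm2 had 708 reads in GFP-positive and 1 read in GFP-negative samples, a ratio of 620 after scaling to mapped reads, with an exact 95% interval of 111 to 24522 that covers counting error only. The difference was 3.13 (adjusted p = 0.0128) in samples 1 to 4 alone and 2.38 (adjusted p = 0.00358) in samples 5 and 6 alone.

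Grm2 lies on the minus strand at chr9:106643095-106656082 of GRCm38. Its promoter is shown because among the 35 member genes matched it was the only one with a promoter in the RefSeq table (GRCm38.p6, 250 bases before to 50 after the start) that holds TTCAGCACC. These letters, searched on both strands, are the left part of RE1, the element bound by REST, which represses neuronal genes outside neurons, and 0.371% of 32851 promoters of this length hold them. The right part, GGACAG, is in 22.2% of promoters and in 15 of the 35 member genes, among them Gria2 and Grin2d, which are printed for comparison. In GENCODE the Grin2d gene spans chr7:45831883-45878378 on the minus strand. Its RefSeq window thus lies inside the gene and not at its GENCODE start. In Grm2 both parts follow each other on 1 strand with 7 bases between them. The search used this spacing of the Grm2 window itself, so that Grm2 had to match, and 2 of the 32851 promoters hold it. Exact letters of both parts at the spacing of 2 bases of the standard element were found in no member, and in 4 promoters in all. Capitals mark exact matches only, so the near match to the left part in Gria2 is in small letters. On the opposite strand the right part reads CTGTCC. In Gria2 the near match follows CTGTCC after 2 bases, the standard spacing, and differs from the left part in 1 letter. Near matches were not searched for in the other promoters.
Grm2, chr9:106656060-106656359, minus strand: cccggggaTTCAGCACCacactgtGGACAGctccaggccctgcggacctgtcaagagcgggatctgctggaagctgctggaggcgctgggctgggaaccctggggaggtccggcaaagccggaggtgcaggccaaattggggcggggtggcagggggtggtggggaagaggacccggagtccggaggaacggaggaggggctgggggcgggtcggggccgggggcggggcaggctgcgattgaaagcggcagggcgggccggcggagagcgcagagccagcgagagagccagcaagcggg
Gria2, chr3:80802786-80803085, minus strand: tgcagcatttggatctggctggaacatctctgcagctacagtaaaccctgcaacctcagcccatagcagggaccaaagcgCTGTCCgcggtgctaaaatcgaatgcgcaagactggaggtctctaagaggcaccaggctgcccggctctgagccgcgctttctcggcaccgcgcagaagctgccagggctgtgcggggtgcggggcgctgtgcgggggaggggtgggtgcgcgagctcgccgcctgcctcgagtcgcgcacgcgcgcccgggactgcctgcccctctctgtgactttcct
Grin2d, chr7:45866632-45866931, minus strand: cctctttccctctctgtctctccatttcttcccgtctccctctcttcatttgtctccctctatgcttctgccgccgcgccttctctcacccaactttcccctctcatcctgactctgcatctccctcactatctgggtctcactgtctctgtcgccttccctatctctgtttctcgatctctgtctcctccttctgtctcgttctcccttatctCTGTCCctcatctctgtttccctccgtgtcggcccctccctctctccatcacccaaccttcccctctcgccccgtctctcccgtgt
The motifs were chosen after the values of Grm2 were known, and a match is a description of the letters and not of a bound site. The homeodomain core TAAT was in 13 of the 35 member genes (58.0% of all promoters), the E-boxes CATCTG in 3 (17.2%) and CAGCTG in 1 (16.3%), and none of these was in the Grm2 window.

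Grm2 was the only 1 of 50 members tested that passed the adjusted threshold of 0.05 between oculomotor fractions, where 6.15% of all genes passed. Gabrd was above 0 in 1 sample and was not tested. The median difference was 0.03 over the 50 members and 0.00 over all genes, 28 of 50 were positive (44.4% of all genes), and 3 members, Grm2 and Gria2 among them, did not overlap between fractions and were higher in GFP-positive cells, against 4.04% of all genes. Same-numbered fractions of a culture deviated together, and a fit with the culture's sample number as a block called 7 members, all higher, where it called 16.4% of all genes. Among them were Grm2, Gabbr1, Gabra2, Gria2, Grin2d and Grm3, of which Gabra2 and Grm3 were named after their values were seen.

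Gabra2, an alpha subunit of GABA-A receptors, was at 0.0846 to 1.76 RPKM in oculomotor GFP-positive and 0 to 0.326 RPKM in GFP-negative samples, and the groups overlapped, with a difference of 0.54 (SE 0.20, adjusted p = 0.117, and 0.0185 with the block). It was 0.26 (adjusted p = 0.212) in samples 1 to 4 and 1.09 (adjusted p = 0.0621) in samples 5 and 6. Its 2 highest GFP-positive values, 1.68 and 1.76 RPKM, were those of the deeper samples 5 and 6.

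Gria2, the AMPA subunit that makes the channel nearly impermeable to calcium once its transcript is edited, was at 0.664 to 1.82 RPKM in oculomotor GFP-positive samples and at 0 to 0.0886 RPKM in GFP-negative samples. No GFP-negative value came near the lowest GFP-positive one, and 404 reads stood against 11. Both lie near or below the offset of 1 RPKM, and the log2 difference was 0.97 (SE 0.43, adjusted p = 0.220). It was 3.11 (adjusted p = 0.0167) with an offset of 0.1 RPKM, and 0.97 (adjusted p = 0.0618) in the shared fit without spinal pair 4. Of 13 alternatives that did not leave out single samples, 5 called it, with adjusted p from 0.000914 to 0.408. With the block within each culture the adjusted p was 0.0382, while it was 0.408 in samples 1 to 4 and 0.221 in samples 5 and 6. Gria4, another AMPA subunit, was at 0.517 to 2.42 RPKM against 0.0554 to 1.06 RPKM, and the groups overlapped (difference 0.67, SE 0.36, adjusted p = 0.352).

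Grin2d, an NMDA subunit typical of immature neurons, was at 0.226 to 7.43 RPKM (median 0.872) in oculomotor GFP-positive and 0.0311 to 0.282 RPKM (median 0.200) in GFP-negative samples. The groups overlapped through GFP-positive sample 1, and sample 4 alone was above 1.75 RPKM. The difference was 0.99 (SE 0.32, adjusted p = 0.0639), and the adjusted p was 0.0408 with the block within each culture. Of 24 fits with 1 sample left out 2 called it. The difference was 1.18 (adjusted p = 0.0249) without GFP-positive sample 1 and 0.62 (adjusted p = 0.101) without GFP-positive sample 4. Grin3b, the other NMDA gene with the highest mean, was at 0 to 3.00 RPKM against 0 to 1.12 RPKM (difference 0.24, SE 0.28, adjusted p = 0.806, and -0.05 without GFP-positive sample 4).

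Gabbr1 was at 4.88 to 31.3 RPKM (median 9.55) in oculomotor GFP-positive and 1.58 to 18.1 RPKM (median 2.82) in GFP-negative samples. Within each number the GFP-positive value was the higher one, while the groups as a whole overlapped. The difference of 1.35 (SE 0.56) had an adjusted p of 0.178 without a block and of 0.0050 with the block within each culture. Grm3, the other group II metabotropic receptor, was at 0.103 to 2.78 RPKM against 0 to 0.243 RPKM (difference 0.63, SE 0.38, adjusted p = 0.430, and 0.0493 with the block), and this was 0.88 in samples 1 to 4 and 0.14 in samples 5 and 6. Grm4, a group III receptor, was at 0.177 to 4.39 RPKM against 0.0303 to 0.976 RPKM (difference 0.74, SE 0.41, adjusted p = 0.370).

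**Figure D2:**
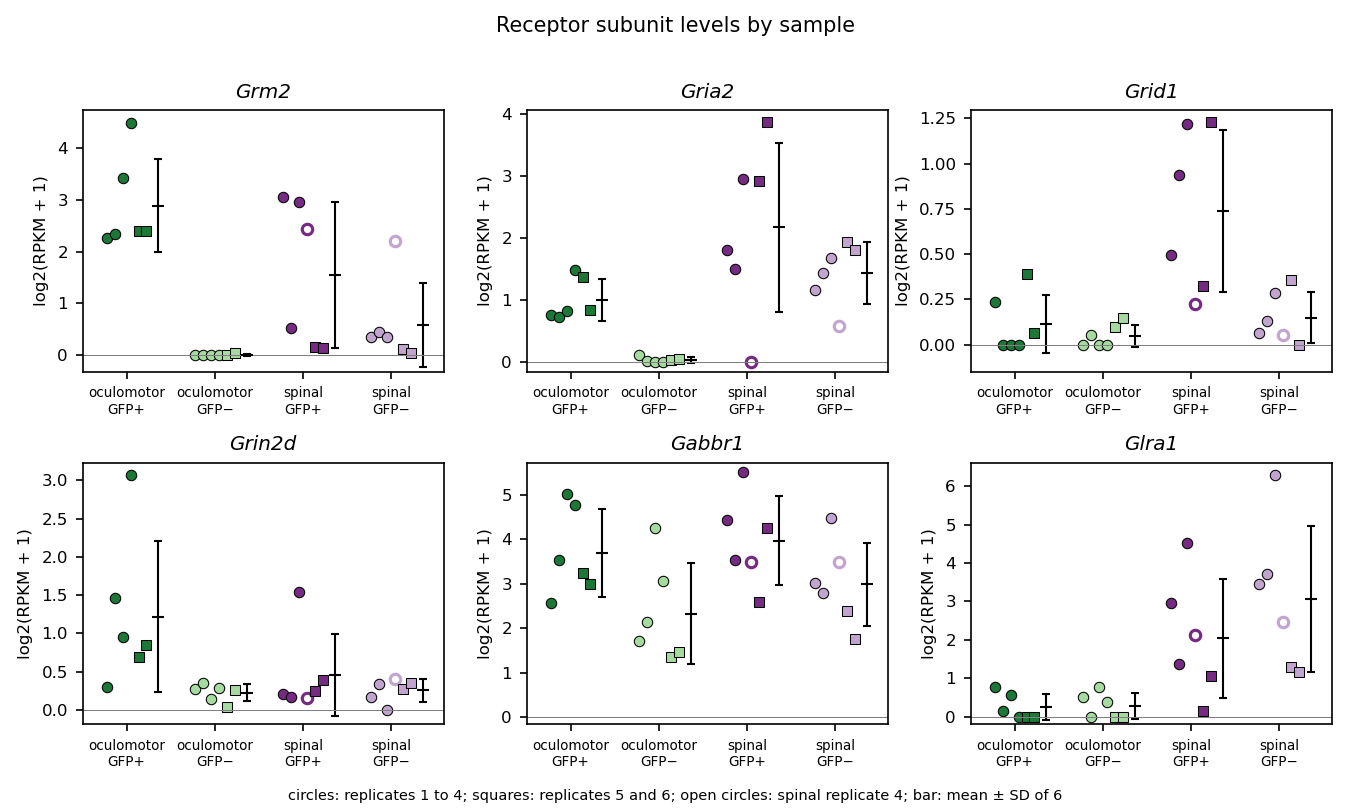
Levels of 6 receptor subunit genes in each sample, as log2(RPKM + 1), in the 4 sorted groups of 6 samples, with circles for replicates 1 to 4, squares for replicates 5 and 6, open circles for spinal pair 4, and bars for the mean ± SD. Grm2 is near 0 in all oculomotor GFP-negative samples and Glra1 is at or below 0.723 RPKM in both oculomotor groups.

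The second comparison asked the same of the spinal fractions. Grid1, a delta receptor subunit that acts in synapse adhesion, was the only 1 of 50 members that passed (limma, adjusted p = 0.0362), where 1.23% of all genes passed. It was at 0.168 to 1.35 RPKM (median 0.664) in GFP-positive and 0 to 0.279 RPKM (median 0.0709) in GFP-negative samples, and the groups overlapped. The difference was 0.59 (SE 0.14). This call rests on individual libraries. It was lost without spinal GFP-positive sample 2, 3 or 6 (adjusted p = 0.0774, 0.105 and 0.0950) and without spinal GFP-negative sample 1, 2, 4 or 6 (adjusted p = 0.0855, 0.0596, 0.0581 and 0.0936). Within samples 1 to 4 the difference was 0.59 (adjusted p = 0.289) and within samples 5 and 6 it was 0.60 (adjusted p = 0.431). Of the 50 members 35 were positive (49.2% of all genes), 23 of 26 glutamate receptor genes and 12 of 24 GABA and glycine receptor genes, and the median difference was 0.08 against 0.00 over all genes.

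With the block within each culture 3 members were called, all higher, Grid1 among them (adjusted p = 0.0404), and 2.93% of all genes. Without pair 4, 3 members were called as well, when 2.90% of all genes passed, and the difference of Grid1 was 0.67 (adjusted p = 0.00875).

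The glycine receptor genes did not share a direction between spinal fractions. Glra1, the adult alpha1 subunit, was at 0.115 to 22.02 RPKM (median 2.498) in GFP-positive and 1.23 to 77.6 RPKM (median 7.18) in GFP-negative samples (difference -1.03, SE 0.69, adjusted p = 0.672). The difference was -1.17 (adjusted p = 0.581) without pair 4 and -0.38 (adjusted p = 0.881) without GFP-negative sample 3. Its highest value in either fraction was that of number 3, and GFP-negative sample 3 was the shallowest of all. Glra2, the fetal alpha2 subunit, was at 0 to 19.1 RPKM (median 1.53) in GFP-positive samples and at 0 to 2.95 RPKM (median 0.0597) in GFP-negative samples (difference 1.21, SE 0.53, adjusted p = 0.413). It was 1.47 (adjusted p = 0.220) without pair 4 and 0.66 (adjusted p = 0.693) without GFP-positive sample 6, and 0.30 in samples 1 to 4 against 3.02 in samples 5 and 6. Of its 562 GFP-positive reads most came from sample 6. Glrb, the beta subunit that anchors glycine receptors to gephyrin, was singled out after its values were seen, and its mean over all samples was 0.905 RPKM with a maximum of 2.79 RPKM.

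Grm2 overlapped between spinal fractions, with 0.106 to 7.36 RPKM (median 2.44) in GFP-positive and 0.0288 to 3.61 RPKM (median 0.276) in GFP-negative samples (difference 0.96, SE 0.52, adjusted p = 0.552, and 1.11 with adjusted p = 0.372 without pair 4). The value of 3.61 RPKM was that of the library labelled GFP-negative 4, which also held the most Mnx1 of its group, and the other 5 were at or below 0.362 RPKM. GFP-positive samples 5 and 6 were at or below 0.113 RPKM, and the difference was 1.41 in samples 1 to 4 and 0.07 in samples 5 and 6. Gria2 was at 0 to 13.6 RPKM (median 4.52) against 0.499 to 2.85 RPKM (median 1.97), and the sample at 0 was the library labelled GFP-positive 4 (difference 0.74, SE 0.43, adjusted p = 0.597). It was 1.00 (adjusted p = 0.154) without pair 4 and 0.40 (adjusted p = 0.829) without GFP-positive sample 6. Gabbr1 (difference 0.98, SE 0.56, adjusted p = 0.580, and 0.448 without pair 4) and Grin2d (difference 0.20, SE 0.32, adjusted p = 0.905, and 0.821 without pair 4) missed the threshold too.

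**Figure D3:**
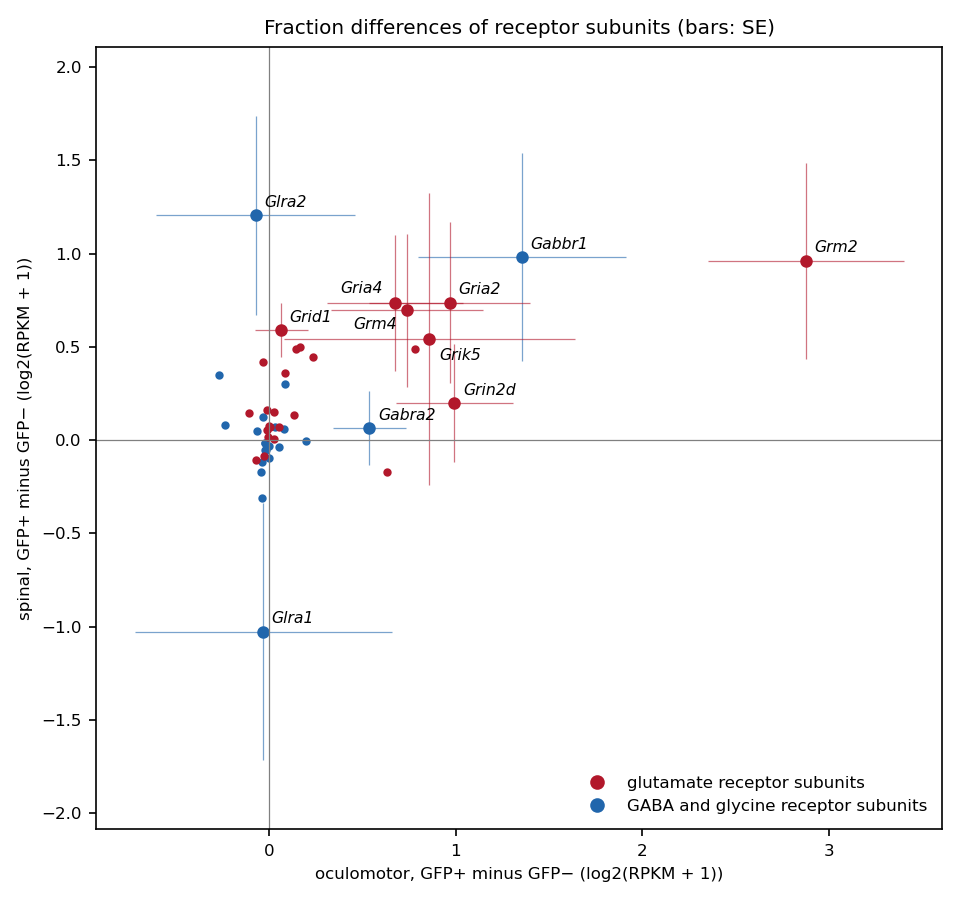
Difference between GFP-positive and GFP-negative cells for the tested subunit genes described, in oculomotor cultures (x axis) and spinal cultures (y axis), on the log2(RPKM + 1) scale, with the SE for labelled genes, glutamate receptor genes in red and GABA and glycine receptor genes in blue. Grm2 lies farthest to the right (2.88), Glra2 highest (1.21), and Glra1 lowest (-1.03).

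Whether the fraction difference itself differed between cultures was tested as an interaction. None of the 50 members passed (0 called, limma), 5 did at an unadjusted p under 0.05 (7.13% of all genes), and 0.32% of all genes passed. Grm2 had the largest interaction, 1.92 (SE 0.74, adjusted p = 0.479), meaning a larger difference in oculomotor cultures. It passed on the recovered reads (5.78, adjusted p = 0.0407), where it was the 1 member called and 0.561% of all genes passed, and in samples 5 and 6 alone (2.31, adjusted p = 0.0426), but not in samples 1 to 4 alone (1.72, adjusted p = 0.9502). For Grid1 the interaction was -0.52 (SE 0.20, adjusted p = 0.479), toward a larger difference in spinal cultures. Without pair 4 they were 1.77 (adjusted p = 0.404) for Grm2 and -0.61 (adjusted p = 0.194) for Grid1. Grm2 and Grid1 each passed in 1 culture, and this fit did not show that their fraction differences differ between cultures.

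The GFP-negative cells of both cultures were compared to describe the surroundings of the sorted neurons. None of the 50 members passed (0 called, limma), 2 did at an unadjusted p under 0.05 (11.3% of all genes), and 0.96% of all genes passed. Both were lower in oculomotor cultures without overlap, against 0.87% of all genes. Glra1 was at 0 to 0.723 RPKM (median 0.154) in oculomotor and at 1.23 to 77.6 RPKM (median 7.18) in spinal GFP-negative samples, and every spinal sample was above every oculomotor one. The difference was -2.78 (SE 0.69) with an adjusted p of 0.0509. It was -2.90 (adjusted p = 0.0371) without pair 4 and -2.14 (adjusted p = 0.102) without spinal sample 3, and 5 of 24 fits with 1 sample left out called it. In samples 1 to 4 it was -3.56 (adjusted p = 0.070) and in samples 5 and 6 it was -1.23 (adjusted p = 0.0941). In reads, 9 stood against 370. Gria2 was at 0 to 0.0886 RPKM in oculomotor and at 0.499 to 2.85 RPKM in spinal GFP-negative samples. The difference was -1.40 (SE 0.43, adjusted p = 0.143), and -1.57 (adjusted p = 0.00958) without pair 4. In samples 1 to 4 it was -1.18 (adjusted p = 0.531) and in samples 5 and 6 it was -1.83 (adjusted p = 0.103). In these groups the summed neuron markers were at 21.2 to 71.0 RPKM and at 66.1 to 297 RPKM, and the part of this in both results was not tested.

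The sorted motor neurons themselves were compared in a fit of the 12 GFP-positive samples. None of the 44 members tested passed (0 called, limma), 8 did at an unadjusted p under 0.05 (10.1% of all genes), and 0.603% of all genes passed. Of the 8, all were lower in oculomotor neurons, and 5 were GABA or glycine receptor genes. Glra1 was at 0 to 0.714 RPKM against 0.115 to 22.02 RPKM (difference -1.79, SE 0.60, adjusted p = 0.273, and 0.334 without pair 4), and the difference was -2.38 in samples 1 to 4 and -0.61 in samples 5 and 6. Glra2 was at 0 to 0.348 RPKM against 0 to 19.1 RPKM (difference -1.47, SE 0.65, adjusted p = 0.468, and 0.324 without pair 4). It was -0.92 without spinal sample 6, -0.75 in samples 1 to 4 and -2.90 in samples 5 and 6. Grid1 was at 0 to 0.308 RPKM against 0.168 to 1.35 RPKM (difference -0.62, SE 0.19, adjusted p = 0.227, 0.132 without pair 4 and 0.0212 in the fit of all samples). In the other direction, Grm2 was at 3.83 to 21.5 RPKM in oculomotor and 0.106 to 7.36 RPKM in spinal motor neurons (difference 1.34, SE 0.64, adjusted p = 0.507, and 0.457 without pair 4), with 0.88 in samples 1 to 4 and 2.25 in samples 5 and 6.

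Summed over families, the 19 GABA-A genes reached 2.80 to 6.70 RPKM in oculomotor and 2.15 to 26.9 RPKM in spinal GFP-positive samples, and the 4 glycine receptor genes 0.112 to 1.71 RPKM and 2.34 to 29.2 RPKM. The glycine receptor sums of these groups did not overlap, although each of the 4 genes did, and the GABA-A sums overlapped. No member tested passed between these groups. How often sums of other gene families separate between groups or fractions was not computed. Glra1 was the largest part of the glycine receptor sum in spinal samples 1 to 4, and Glra2 in spinal samples 5 and 6. The 4 AMPA genes summed to 1.43 to 4.07 RPKM and 0.325 to 21.7 RPKM, and the 8 metabotropic genes to 4.67 to 28.7 RPKM and 0.837 to 15.3 RPKM. In oculomotor GFP-negative samples the metabotropic sum was 0.107 to 1.22 RPKM, below every oculomotor GFP-positive sample. Grm2 alone was at 3.83 to 21.5 RPKM in those GFP-positive samples, while Grm3 and Grm4 overlapped between the fractions.

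The kainate receptor genes were led by Grik5, the GluK5 subunit, which forms channels only together with GluK1, GluK2 or GluK3. It was at 2.09 to 28.3 RPKM (median 8.75) in oculomotor GFP-positive, 1.20 to 16.8 (median 1.95) in oculomotor GFP-negative, 1.02 to 30.2 (median 12.6) in spinal GFP-positive and 1.4999 to 22.1 RPKM (median 7.15) in spinal GFP-negative samples. No difference between groups passed (adjusted p from 0.683 to 0.963, and from 0.672 to 0.943 without pair 4). The deeper samples held less of it, with a median of 13.6 RPKM in the 16 samples numbered 1 to 4 and of 1.70 RPKM, at most 3.13 RPKM, in the 8 samples numbered 5 and 6. RPKM is already scaled to mapped reads, and the cause of such shifts between the sets was not tested. Grm4 (median 1.496 against 0.168 RPKM) and Glra1 (1.16 against 0.0573 RPKM) were lower in the deeper set too, while Gria2 (0.743 against 2.06 RPKM) and Gabra2 (0.0515 against 0.384 RPKM) were higher there. Grik3, which encodes GluK3, was at 0.129 to 1.27 RPKM in oculomotor and 0.477 to 4.64 RPKM in spinal GFP-positive samples (difference -0.65, SE 0.35, adjusted p = 0.571, and 0.533 without pair 4).

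Genes that work with these receptors were counted from 5 lists. Beside each count, 6.15% of all genes passed between oculomotor and 1.23% between spinal fractions. Of 32 partners of excitatory receptors 4 were higher in oculomotor GFP-positive than GFP-negative cells and 0 lower (median difference 0.26 against 0.00 over all genes), and 1 was higher between spinal fractions (median 0.35). Cacng3, an auxiliary subunit of AMPA receptors, was at 0.698 to 2.84 RPKM in oculomotor GFP-positive samples, at 0 in 5 of 6 GFP-negative samples and at 0.267 RPKM in the other, and at most at 0.0996 and 0.213 RPKM in the spinal fractions. Every oculomotor GFP-positive value was thus above all values of the other groups. Between the oculomotor fractions alone, 4.04% of all genes were higher without overlap, and the share for all groups was not computed. The difference of Cacng3 to their GFP-negative cells was 1.503 (SE 0.15, adjusted p = 6.3e-07). Its interaction was 1.503 (SE 0.21, adjusted p = 0.00053), and its difference to spinal motor neurons 1.49 (SE 0.23, adjusted p = 0.00833). Each of these 2 Cacng3 results was called in 9 of 11 alternatives that did not leave out single samples (highest adjusted p = 0.186 and 0.176). The other 3 were Nptx2, a secreted pentraxin that clusters AMPA receptors (2.22 to 28.4 against 0.164 to 2.75 RPKM, difference 2.06, SE 0.57, adjusted p = 0.0302), Grip1, an AMPA receptor scaffold (1.57, SE 0.47, adjusted p = 0.0473), and the scaffold Shank2 (0.85, SE 0.25, adjusted p = 0.0463). Leaving out 1 sample at a time kept the calls of Nptx2 in 19, of Shank2 in 9 and of Grip1 in 8 of 24 fits, and that of Cacng3 in all 24. In spinal cultures Grip2, another AMPA receptor scaffold, was at 0.0148 to 0.903 RPKM in GFP-positive and 0 to 0.126 RPKM in GFP-negative samples (0.42, SE 0.10, adjusted p = 0.0404), and its highest value was that of the library labelled GFP-positive 4 (adjusted p = 0.0734 without pair 4, and 0.0530 with the block within each culture).

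Of 15 partners of inhibitory receptors 0 passed in either fraction comparison (median differences 0.46 and 0.36), although their summed level was high, at 164 to 293 RPKM in oculomotor GFP-positive and 82.5 to 391 RPKM in spinal GFP-positive samples. Of 7 genes of neuronal chloride transport 1 passed, Slc12a5, the chloride exporter KCC2 that makes GABA and glycine inhibitory. It was at 0.948 to 5.7 RPKM in oculomotor GFP-positive and 0.0463 to 0.378 RPKM in GFP-negative samples. These groups did not overlap (4.04% of all genes in this direction), and the difference was 1.32 (SE 0.33, adjusted p = 0.0151). In spinal cultures Slc12a5 was at 0.516 to 4.67 against 0.476 to 1.78 RPKM and none of the 7 passed. Of 10 genes for glutamate synthesis, release and uptake 1 passed between oculomotor fractions, the uptake transporter Slc1a3, which was lower in GFP-positive cells (0.0458 to 1.59 against 3.52 to 7.9 RPKM, difference -1.88, SE 0.43, adjusted p = 0.00881), and 0 passed between spinal fractions. Of 9 genes for GABA and glycine synthesis, release and uptake 0 passed in either, and the summed level was 2.97 to 9.92 RPKM in oculomotor and 7.49 to 18.1 RPKM in spinal GFP-positive samples.

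**Figure D4:**
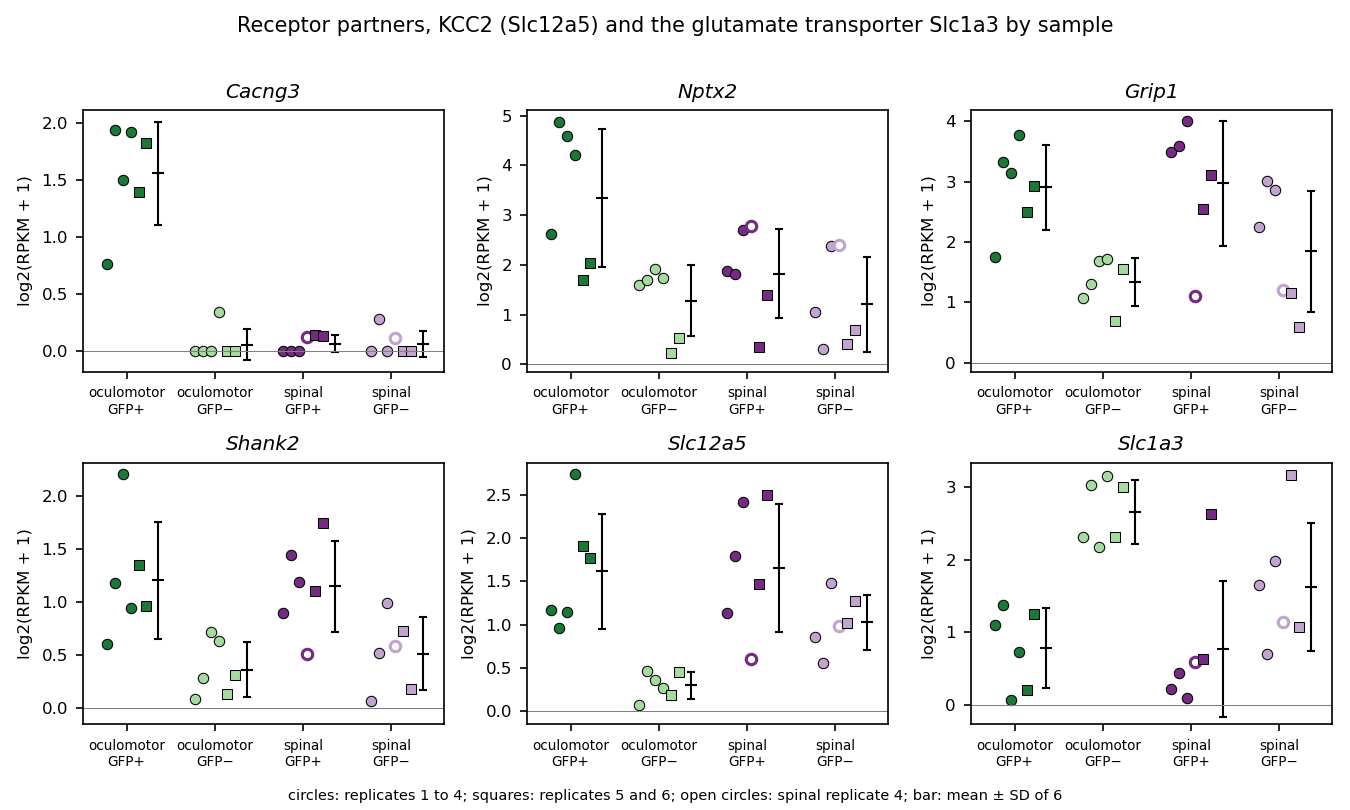
Levels of 4 AMPA receptor partners and scaffolds, the chloride exporter gene Slc12a5 and the glutamate transporter gene Slc1a3 in each sample, as log2(RPKM + 1), with circles for replicates 1 to 4, squares for replicates 5 and 6, open circles for spinal pair 4, and bars for the mean ± SD of 6 samples. Cacng3 is at or above 0.698 RPKM in the oculomotor GFP-positive samples and at or below 0.267 RPKM in every other sample.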

How the data were processed

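RNA of 24 sorted samples was sequenced by SMART-seq2 without molecular identifiers. The authors aligned reads with HISAT2 (2.0.3) to mm10 and deposited RPKM values from rpkmforgenes. Their own tests used DESeq2 (1.12.4) on counts, which were not used here. Differences were fitted with limma (3.58.1, R 4.3.3, trend, Benjamini-Hochberg over all genes, threshold 0.05) on log2(RPKM + 1), for genes above 0 in at least 2 samples, with all 24 samples together or, between GFP-positive cultures, with those 12. Fraction differences are GFP-positive minus GFP-negative and culture differences oculomotor minus spinal. Members and lists were chosen with earlier results of these data known. Named in full were members that passed in any comparison and the 2 with the highest mean RPKM of each family, or 1 in families of 2, but 2 of these members are not reported here.

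Whole reads were recovered from the RPKM steps for 18990 of 22144 genes (85.8%, within 0.02 reads) and for 47 of 51 members, and gave the depths. They were also tested with limma's voom, chosen after seeing the data. Same-numbered fractions of a culture deviated together (r from 0.379 to 0.728 in 12 of 12 pairs, across 11952 genes, which are not independent, and 11 of 12 correlated best with their own number), so the numbers were taken to pair the fractions of a culture. The main fits used no block and so left this pairing out. It entered only the fits described as having the block within each culture, which called 7 members between oculomotor and 3 between spinal fractions. Between cultures 8 of 12 same-numbered pairs had r above 0.1 and 3 of 12 correlated best with their own number, so the numbers were not taken to pair cultures. No source used here says that samples of a group came from separate cultures, and p-values measure the spread between these samples. There were 0 pairs of identical samples. Read intervals cover counting error only. The fits were tested on simulated data. Promoters were taken from RefSeq (GRCm38.p6) and gene positions from GENCODE (GRCm38).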

Additional observations from a re-analysis of the deposited data

Results flagged for a closer look

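In groups of 6, a sample was singled out where its gap to the nearest other sample, over the range of the group, exceeded Dixon's 95% critical value. For normally distributed values chance gives this in about 1 in 20 groups. Several of these groups hold zeros or few reads, where that rate need not hold. Of 56 groups examined over 14 members 11 had such a sample, always the highest. In oculomotor GFP-negative cells these were Glra2 in sample 1 (0.766 RPKM, next 0.235), Grik3 in sample 1 (1.61 RPKM, next 0.366), Grin3b in sample 4 (1.12 RPKM, next 0.318) and Grm2 in sample 6 (0.0329 RPKM, others at 0). In spinal GFP-negative cells they were Gria4 in sample 5 (1.55 RPKM, next 0.281), Glra2 in sample 3 (2.95 RPKM, next 0.09003) and Grm3 in sample 3 (4.79 RPKM, next 0.971). The library labelled spinal GFP-negative 4 was highest for Grm2 (3.61 RPKM, next 0.362) and Grin3b (0.500 RPKM, next 0.0855). In spinal GFP-positive cells they were Grin2d in sample 3 (1.91 RPKM, next 0.313) and Gabra2 in sample 6 (0.665 RPKM, next 0.151).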

How the results depend on the processing

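Among named members, the differences with an unadjusted p under 0.05 kept their direction under the alternatives run, while smaller ones, such as Grin3b between oculomotor and Grin2d between spinal fractions (-0.05 and -0.02 with 1 sample left out), did not all do so. Grm2 stayed called between oculomotor fractions in all 24 fits that left out 1 sample and in the 13 other alternatives. The number of members called between oculomotor fractions (1) became 4 with an offset of 0.1 RPKM, 2 with a mean of at least 1 RPKM, 5 with the replicate block across both cultures, 7 with the block within each culture, 2 after rescaling by median ratios, 5 with sample quality weights, 2 without spinal pair 4, 3 in a fit of that culture only and 4 on the recovered reads, and was 1 to 3 with 1 sample left out. Between spinal fractions (1) it became 3 with either block, 3 with weights, 3 without pair 4, and 0 in samples 1 to 4, in samples 5 and 6, in a fit of that culture only and without GFP-negative samples 2 and 3. With 1 sample left out it was 0 to 4, and the 4 were reached without GFP-positive 4. The interaction (0) gave 1 in samples 5 and 6 and 1 on recovered reads, and 0 with each sample left out. Between GFP-negative cultures (0) it became 2 with the offset of 0.1, 1 with the mean filter, 1 with the replicate block across cultures (Glra1, adjusted p = 0.00622), 1 with median ratios, 2 with weights, 2 without pair 4, 1 in the 12 GFP-negative samples alone and 1 on recovered reads, and was 0 to 1 with 1 sample left out. Between GFP-positive cultures (0) it became 1 with weights, 2 in the fit of all 24 samples and 2 on recovered reads, and was 0 with each sample left out. The causes were not tested. The block across cultures joins samples of different cultures whose numbers are not shown to pair them. The block within each culture changed no call of a member beyond those counted above. Subunits below 1 RPKM rest on few reads, and at the shallowest depth 1 read of a 3 kb transcript is worth 0.443 RPKM.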
